A study of Homo sapiens with 18 samples.

Results

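TYRP1, RYR2, ZNF32, STAR and NFIX are genes whose transcript levels were lower in U937 cells after decitabine or after a histone deacetylase inhibitor. They were chosen by their measured falls against the untreated control in these same arrays. TYRP1 and RYR2 were selected on decitabine against control, and STAR and NFIX on a deacetylase inhibitor against control. Which contrast selected ZNF32 is not known. Their changes against control are therefore a description with no test, and a test is given only between groups outside the contrast that selected the gene. The genes were chosen with earlier results of these data known. Whether levels in the other groups also played a part is not known, so the choice may favour the tested differences too. The 5 genes, each with 1 probe set, are 5 of the 14884 genes with a named probe set.

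U937 is a human monocytic cell line from a histiocytic lymphoma. Total RNA was measured on 18 Affymetrix arrays, 3 in each of 6 groups. The groups were an untreated control (labelled ctrl), decitabine (5-aza-2'-deoxycytidine, labelled D50), panobinostat (labelled P8), valproic acid (labelled V1), decitabine with panobinostat, and decitabine with valproic acid. The decitabine schedule was 3 pulses, each of 24 h, and an inhibitor accompanied the last of them for 24 h. The numbers 50, 8 and 1 in the labels carry no unit. The only cells studied were this 1 line, and nothing in the labels says that replicates were separate cultures, so a p-value measures the spread between arrays, which may be technical. In such bulk RNA, fewer cells with a transcript and less transcript per cell cannot be told apart.

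Decitabine is a cytidine analogue that is built into DNA, traps DNA methyltransferases and so lowers methylation of CpG sites as cells divide. Panobinostat, a hydroxamic acid, and valproic acid, a branched short-chain fatty acid, inhibit histone deacetylases, and histone acetylation rises. Both classes are best known for raising transcripts, and the genes here are ones with lower transcript levels. The 5 genes belong to unrelated systems. TYRP1 encodes tyrosinase-related protein 1, a melanosome membrane enzyme of melanin synthesis that the transcription factor MITF controls in pigment cells through M-box motifs. RYR2 encodes the ryanodine receptor through which heart muscle releases calcium from the sarcoplasmic reticulum. STAR encodes the protein that brings cholesterol into mitochondria, the rate-limiting step of steroid hormone synthesis. NFIX is a transcription factor of the nuclear factor I family, and ZNF32 is a zinc finger protein of the Krueppel type.

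The start-site sequences are shown because the drugs act on DNA methylation and chromatin, and the genes differ in how many CpG sites lie there. The RefSeq promoter table for GRCh38.p14 gave windows of 300 bases, 250 before a transcription start and 50 after it. It held 1 window for TYRP1, 1 for RYR2, 2 for ZNF32 and 5 for NFIX. STAR was not matched in it. The 250 bases before the start are printed 5′ to 3′ on the gene's strand for TYRP1 (chr9:12693135-12693384, plus strand), RYR2 (chr1:237041934-237042183, plus strand) and the first ZNF32 window (chr10:43648882-43649131, minus strand). Capitals mark every CpG.
TYRP1: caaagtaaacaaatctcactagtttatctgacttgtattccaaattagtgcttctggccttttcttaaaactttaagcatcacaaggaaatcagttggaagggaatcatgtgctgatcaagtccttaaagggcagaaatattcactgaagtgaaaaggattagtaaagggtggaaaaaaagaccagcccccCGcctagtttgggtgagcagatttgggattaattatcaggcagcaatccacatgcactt
RYR2: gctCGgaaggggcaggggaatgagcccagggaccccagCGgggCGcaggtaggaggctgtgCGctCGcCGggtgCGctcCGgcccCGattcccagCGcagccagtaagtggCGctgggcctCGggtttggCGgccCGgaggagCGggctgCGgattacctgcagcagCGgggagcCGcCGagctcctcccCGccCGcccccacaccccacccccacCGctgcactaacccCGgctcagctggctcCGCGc
ZNF32: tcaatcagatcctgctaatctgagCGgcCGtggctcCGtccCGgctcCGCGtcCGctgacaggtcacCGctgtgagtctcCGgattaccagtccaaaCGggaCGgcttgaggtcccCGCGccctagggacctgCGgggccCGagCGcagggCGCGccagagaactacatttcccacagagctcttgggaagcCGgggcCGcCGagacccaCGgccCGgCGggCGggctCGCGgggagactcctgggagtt

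The printed TYRP1 stretch holds 1 CpG, that of RYR2 holds 25 and that of ZNF32 holds 27. Over the whole 300-base window, TYRP1 had 2 CpG sites, and 11.0% of the 35116 windows in the table had fewer. RYR2 had 32, more than 81.1% of windows, and the ZNF32 windows had 36 and 39, more than 87.3% and 91.3% of windows. The NFIX windows ranged from 7 CpG sites, more than 36.8% of windows, to 46, more than 97.1%. The median window held 14. TYRP1 and RYR2, both selected on decitabine, thus lay on opposite sides of the median. Methylation itself was not measured.

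**Figure D1:**
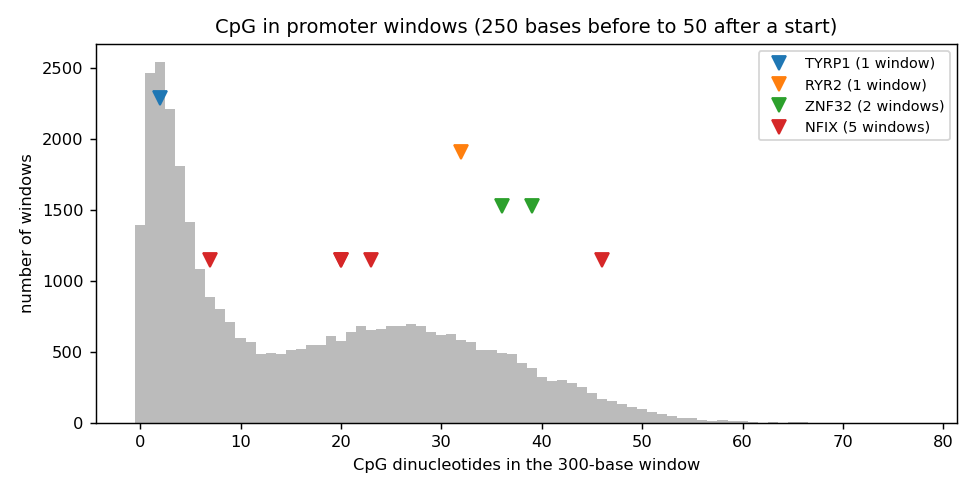
Number of CpG sites (x axis) against the number of promoter windows of 300 bases with that many (y axis), for all 35116 windows. Triangles mark the windows of TYRP1, RYR2, ZNF32 and NFIX, their height has no meaning, and 2 NFIX windows share 20 CpG sites; the TYRP1 window, with 2 sites, lies below the median of 14, and those of RYR2 and ZNF32 lie above it.

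Each window was searched on both strands for the core of the M-box, CATGTG. The M-box core occurred in 11.1% of all windows. The TYRP1 window held it 144 bases before the start on the gene's strand and 11 bases before the start on the other strand, and the first NFIX window held it 127 bases before the start. No RYR2 or ZNF32 window held these letters. The CCAAT letters, present in 34.6% of all windows, occurred in the second NFIX window only among those of the 4 genes. These matches are descriptions of the letters and not of binding.

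Values are the deposited log2 signals, on which a difference of 1 is a 2-fold difference in signal. Array medians ran from 3.81 to 3.87, and the median of all values was 3.84. A level near the median is weakly detected, if at all. Arrays of a group correlated at 0.985 to 0.992 over genes. On the leading principal component, with 34.2% of the variance, the first decitabine and valproic acid replicate, at 12.0, stood apart from the other arrays of its group, at 23.9 and 30.6. Of the 12 monocytic markers measured, 11 lay above the median of all values in control. Markers of the cell types in which TYRP1, RYR2 and STAR are best known were mostly below it, with 2 of 7 melanocyte markers, 1 of 6 heart muscle markers and 1 of 3 steroidogenic markers above. Among 5 neuron markers, 1 lay above. Of the markers other than monocytic ones, only PMEL and TNNI3 passed a test against control in any treatment, PMEL in both combinations and TNNI3, by 0.48, in the one with panobinostat, where 3 fits that left out an array lost it.

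TYRP1 stood at 7.89, 7.92 and 7.67 in the control arrays. It stood at 6.13, 6.42 and 5.98 with decitabine, at 6.17, 6.56 and 6.44 with decitabine and panobinostat, and at 6.01, 6.40 and 6.11 with decitabine and valproic acid. All 9 arrays with decitabine lay below all 9 without it. Panobinostat alone gave 8.59, 8.89 and 8.65, above every control array. Valproic acid alone gave 7.64, 7.93 and 8.21, which overlapped the control. Against control, TYRP1 was 3.13-fold lower with decitabine (log2 change -1.65, SE 0.16), 2.71-fold lower with decitabine and panobinostat and 3.15-fold lower with decitabine and valproic acid. It was 1.85-fold higher with panobinostat. In the order of group means, panobinostat (8.71 ± 0.16, SD, n = 3) came first, followed by valproic acid (7.93 ± 0.28), control (7.83 ± 0.14), decitabine with panobinostat (6.39 ± 0.20), decitabine (6.18 ± 0.22) and decitabine with valproic acid (6.17 ± 0.20). The neighbours valproic acid and control overlapped, as did the 3 decitabine groups among themselves.

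RYR2 stood at 5.86, 6.23 and 5.77 in control and at 4.45, 4.19 and 4.09 with decitabine. The decitabine arrays were all lower, by 3.27-fold on average (log2 change -1.71, SE 0.21). It stood at 4.36, 4.06 and 4.20 with decitabine and panobinostat, and at 4.63, 4.52 and 3.92 with decitabine and valproic acid. These levels lay 3.35-fold and 3.02-fold below control and close to the median of all values. The inhibitors alone gave 5.91, 5.58 and 5.51 with panobinostat and 6.01, 6.27 and 5.53 with valproic acid, and both overlapped the control. Group means ran from control (5.95 ± 0.24) through valproic acid (5.94 ± 0.37) and panobinostat (5.67 ± 0.21) to decitabine with valproic acid (4.36 ± 0.38), decitabine (4.24 ± 0.19) and decitabine with panobinostat (4.21 ± 0.15). Only the step between panobinostat and the decitabine groups separated neighbours without overlap.

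**Figure D2:**
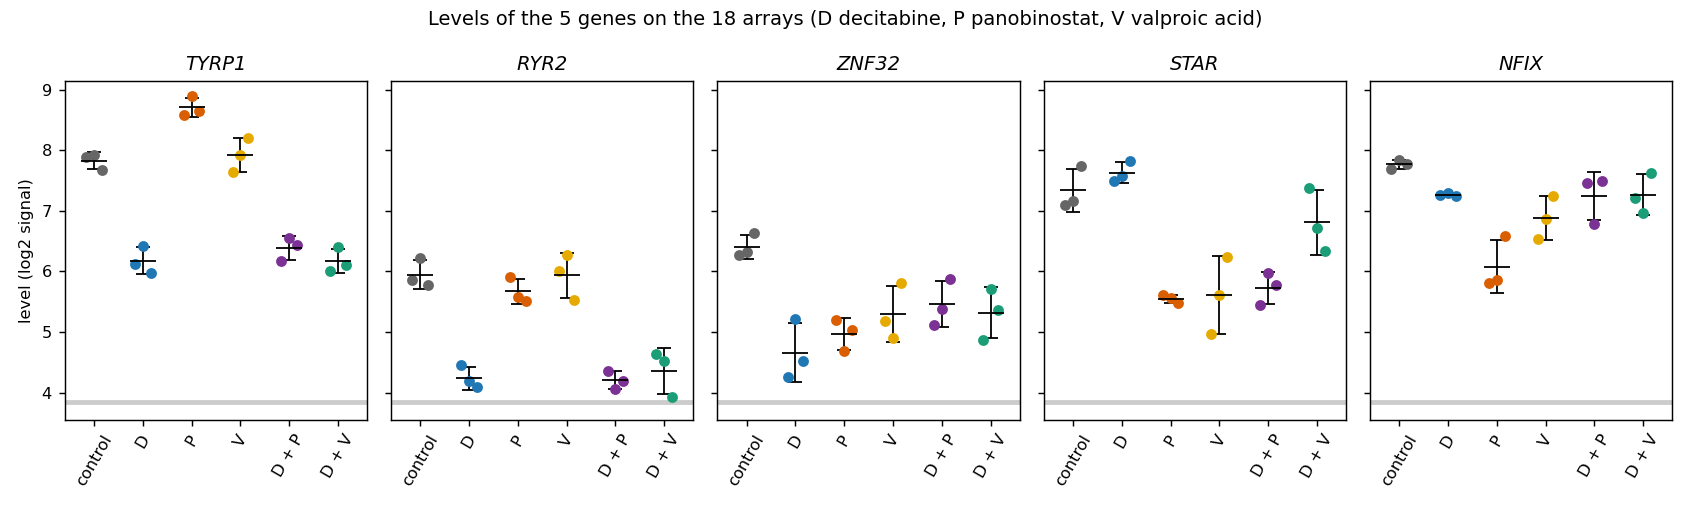
Deposited log2 signal (y axis) of TYRP1, RYR2, ZNF32, STAR and NFIX, 1 panel a gene, in the 6 groups (x axis); each point is 1 array, and the dash and bars are the group mean and SD. TYRP1 and RYR2 are low in the 3 groups with decitabine, STAR is low with either inhibitor alone and with decitabine and panobinostat, and ZNF32 and NFIX are below control in all 5 treated groups.

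Decitabine lowered TYRP1 and RYR2 also in cells that received an inhibitor. The differences are between groups outside the contrast that selected these genes. Earlier results of all groups were known at the choice, so it may favour these differences and their p-values. Their SEs, intervals and p-values rest on a spread estimated over all arrays, the selecting ones included. TYRP1 was 5.00-fold lower with decitabine and panobinostat than with panobinostat alone (log2 difference -2.32, SE 0.16, 95% interval -2.67 to -1.98, limma adjusted p = 1.26e-07). RYR2 was 2.75-fold lower (-1.46, SE 0.21, -1.90 to -1.02, adjusted p = 0.00028). In this comparison 9.55% of all genes were called at an adjusted p under 0.05. With valproic acid in both groups, TYRP1 was 3.38-fold lower (-1.76, SE 0.16, -2.10 to -1.41, adjusted p = 3.68e-06) and RYR2 was 2.99-fold lower (-1.58, SE 0.21, -2.02 to -1.14, adjusted p = 0.000194), and 4.03% of all genes were called. Arrays did not overlap in any of these 4 comparisons, but the share of all genes without such overlap was not counted. Without the first decitabine and valproic acid replicate, the differences against valproic acid were -1.67 for TYRP1 (adjusted p = 3.69e-05) and -1.71 for RYR2 (adjusted p = 0.00026). Over all alternatives, the 4 adjusted p-values ran no higher than 0.000124 and 0.00255 with panobinostat and 0.00354 and 0.0245 with valproic acid, for TYRP1 and RYR2 in turn.

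Panobinostat and valproic acid were compared directly in 2 pairs of groups, without and with decitabine. Nothing in the labels says that their doses match. Without decitabine, TYRP1 was 1.72-fold higher with panobinostat than with valproic acid (log2 difference 0.78, 95% interval 0.44 to 1.13), the arrays did not overlap, and the adjusted p over all genes was 0.102. It ranged from 0.0473 to 0.29 over the alternatives. RYR2 differed by -0.27 (interval -0.71 to 0.17, adjusted p = 0.752). Only 0.121% of all genes were called here. With decitabine, TYRP1 differed by 0.22 (interval -0.13 to 0.57, adjusted p = 0.679) and RYR2 by -0.15 (interval -0.59 to 0.29, adjusted p = 0.864), and 0.652% of all genes were called. These intervals bound the difference and do not show equal levels.

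**Figure D3:**
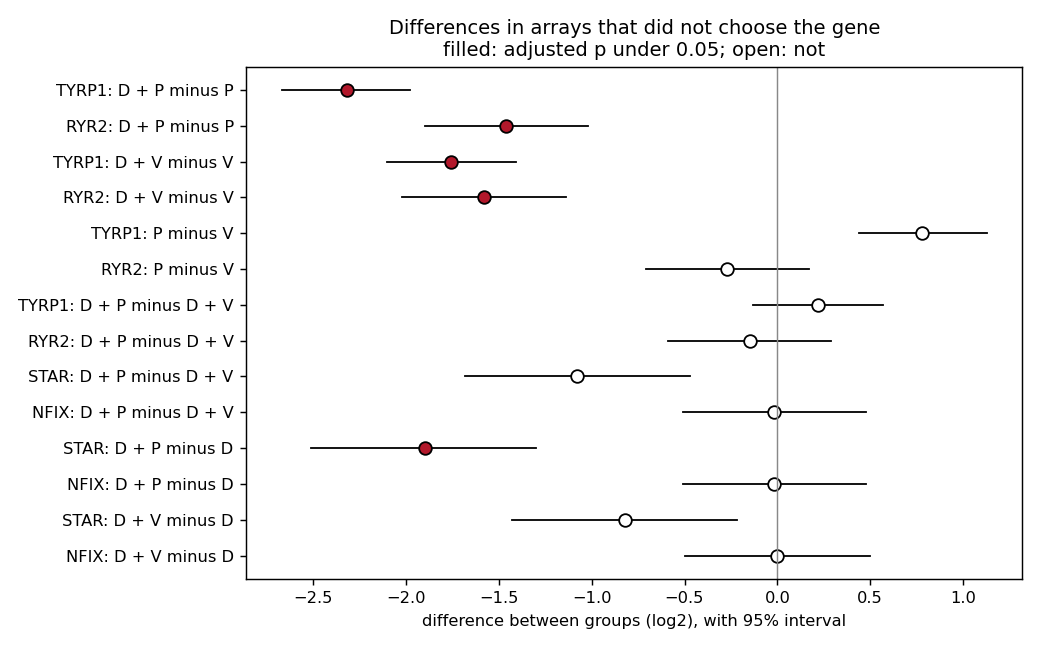
Log2 differences (x axis) of TYRP1, RYR2, STAR and NFIX in comparisons between groups outside the contrast that selected them, though the choice may still favour them. The 95% intervals are from the limma fit, not adjusted for the number of genes. Each row is 1 gene in 1 comparison, and D, P and V stand for decitabine, panobinostat and valproic acid. Filled points passed at an adjusted p under 0.05. The 5 filled points lie between -2.32 and -1.46.

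Monocytic markers were also called in each treated group, and in both directions in every group but decitabine alone. In decitabine against control, 6 of 12 were called higher and 0 lower, with a median log2 change of 0.77. Over all genes, the shares called higher and lower were 2.57% and 1.39% for decitabine, 3.92% and 3.47% for panobinostat, 4.73% and 2.74% for valproic acid, 11.2% and 12.0% for decitabine and panobinostat together, and 8.9% and 8.06% for decitabine and valproic acid together. Their summed level was 85.8 to 86.9 in control, 97.4 to 100.3 with decitabine, 85.8 to 88.0 with panobinostat, 83.9 to 85.1 with valproic acid, 88.2 to 90.6 with decitabine and panobinostat and 89.7 to 95.8 with decitabine and valproic acid. PRTN3, a neutrophil and monocyte serine protease, rose by 3.04 with decitabine (adjusted p = 3.45e-06). TYROBP, a signalling adaptor of myeloid receptors, rose by 2.91 (adjusted p = 1.63e-08) and CSF1R, the receptor for macrophage colony-stimulating factor, by 2.41 (adjusted p = 0.000103). In the combination with panobinostat, 4 were called higher and 3 lower, and in that with valproic acid 5 and 2. Median log2 changes there were -0.14 and 0.00. With decitabine and panobinostat, PRTN3 had a mean of 4.43, against 4.58 in control. The largest fall in the combinations was that of CSF3R in the one with panobinostat (log2 change -1.86, limma adjusted p = 1.26e-05). With the inhibitors alone, 3 markers were called higher and 3 lower with panobinostat, and 2 and 3 with valproic acid. Their part in the lower levels of the 5 genes was not tested. The summed melanocyte markers were 25.4 to 26.5 in control and 25.0 to 26.0 with decitabine, and the summed heart muscle markers 23.0 to 23.8 and 22.3 to 22.7.

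ZNF32 was lower than control in all 5 treated groups. The control arrays stood at 6.27, 6.32 and 6.64, and each of the 15 treated arrays lay below the lowest of them. All 5 comparisons share these control arrays and so do not count as separate falls. A choice for a fall from them favours low values in every treated group. The share of all genes that lie so was not counted. Decitabine gave 4.26, 5.21 and 4.52, panobinostat 5.20, 4.68 and 5.03, and valproic acid 5.18, 4.91 and 5.81. The combinations were no lower than the single drugs, at 5.12, 5.38 and 5.87 with decitabine and panobinostat and 4.87, 5.71 and 5.37 with decitabine and valproic acid. The falls against control were 3.36-fold with decitabine (log2 change -1.75, SE 0.28), 2.70-fold with panobinostat, 2.15-fold with valproic acid, 1.94-fold with decitabine and panobinostat and 2.13-fold with decitabine and valproic acid. Among the treated groups, means ran from 4.66 ± 0.49 with decitabine to 5.46 ± 0.38 with decitabine and panobinostat, and every neighbouring pair overlapped. ZNF32 had the widest spread between arrays under decitabine of the 5 genes. No test is given for it, since any contrast may have selected it.

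STAR was lower with either inhibitor alone and stayed within the control range or just above it with decitabine. It stood at 7.10, 7.17 and 7.74 in control and at 7.49, 7.58 and 7.82 with decitabine, which overlapped. It stood at 5.62, 5.56 and 5.48 with panobinostat and at 4.97, 5.62 and 6.24 with valproic acid, all below control. These levels were 3.44-fold (log2 change -1.78, SE 0.29) and 3.31-fold (-1.73) below control. Decitabine with panobinostat gave 5.45, 5.97 and 5.77, a level 3.05-fold below control. Decitabine with valproic acid gave 7.38, 6.71 and 6.33, which overlapped the control and was 1.44-fold lower on average. The order of group means was decitabine (7.63 ± 0.17), control (7.34 ± 0.35), decitabine with valproic acid (6.81 ± 0.53), decitabine with panobinostat (5.73 ± 0.26), valproic acid (5.61 ± 0.64) and panobinostat (5.55 ± 0.07). Only the groups decitabine with valproic acid and decitabine with panobinostat were neighbours that did not overlap.

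Panobinostat lowered STAR also in cells given decitabine, a difference between groups outside the contrast that selected it. As for TYRP1 and RYR2, the choice may still favour this difference. Here too the SE, interval and p-value rest on a spread estimated over all arrays, the selecting ones included. STAR was 3.73-fold lower with decitabine and panobinostat than with decitabine alone (log2 difference -1.90, SE 0.29, 95% interval -2.51 to -1.30, adjusted p = 0.00031), in a comparison that called 15.6% of all genes. Adjusted p-values over the alternatives ran from 6.08e-05 to 0.00239. Valproic acid with decitabine gave a difference of -0.82 from decitabine alone (interval -1.43 to -0.22, adjusted p = 0.105), which did not pass the test, and 6.13% of all genes were called. This value turned on 1 array: without the first decitabine and valproic acid replicate, which had the highest STAR level of its group, the difference was -1.11 (adjusted p = 0.0253). Between the combinations, STAR was lower with panobinostat, at a log2 difference of -1.08 (interval -1.68 to -0.47), the arrays did not overlap, and the adjusted p was 0.105, or 0.312 with a difference of -0.79 without that replicate. As a description, STAR with decitabine and valproic acid was 2.29-fold above valproic acid alone, with no overlap.

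NFIX had its lowest levels with panobinostat alone. The control arrays stood at 7.70, 7.84 and 7.77 and those with panobinostat at 5.81, 5.86 and 6.59, a mean 3.22-fold lower (log2 change -1.69). Valproic acid gave 6.53, 6.87 and 7.24, a mean 1.86-fold lower, also without overlap. Decitabine gave 7.26, 7.30 and 7.24, a narrow range 1.42-fold below control (-0.50, SE 0.23). The combinations overlapped decitabine alone, with 7.46, 6.79 and 7.49 for decitabine and panobinostat and 7.22, 6.96 and 7.62 for decitabine and valproic acid. All treated arrays lay below the lowest control array, but these comparisons share the same control arrays, as for ZNF32. In the order control (7.77 ± 0.07), decitabine (7.27 ± 0.03), decitabine with valproic acid (7.27 ± 0.34), decitabine with panobinostat (7.25 ± 0.40), valproic acid (6.88 ± 0.36) and panobinostat (6.08 ± 0.44), only the first pair of neighbours did not overlap.

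In cells given decitabine, NFIX passed no test with either inhibitor. The log2 difference from decitabine alone was -0.02 with panobinostat (95% interval -0.51 to 0.48, adjusted p = 0.974). With valproic acid it was -0.00 (interval -0.50 to 0.50, adjusted p = 0.999). The combinations differed by -0.02 (interval -0.51 to 0.48, adjusted p = 0.993). As a description, NFIX with decitabine and panobinostat was 2.24-fold above panobinostat alone (log2 difference 1.16), with no overlap of arrays. With decitabine and valproic acid it was 1.31-fold above valproic acid alone (log2 difference 0.39), and those arrays overlapped. Between decitabine with panobinostat and panobinostat alone, ZNF32 differed by 0.48, with overlap.

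To place the falls among all genes, the 11916 protein-coding genes were ranked from the largest fall against control. With decitabine, ZNF32 ranked 1, RYR2 2 and TYRP1 3. With panobinostat, STAR ranked 3, NFIX 5 and ZNF32 14. With valproic acid, STAR ranked 3, ZNF32 35 and NFIX 113. With decitabine and panobinostat the first of the 5 genes was RYR2 at 44, ahead of STAR at 67 and TYRP1 at 122, and with decitabine and valproic acid TYRP1 ranked 7, RYR2 13 and ZNF32 143. These ranks restate the choice of the genes. The share of all genes called lower was 1.39% in the decitabine group, 3.47% in the panobinostat group, 2.74% in the valproic acid group, 12.0% for decitabine and panobinostat together and 8.06% for decitabine and valproic acid together. Nothing is read from it for the 5 genes, whose selection used these contrasts.

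The combinations were set against the sum of the single-drug changes on the log2 scale. The additive levels are built from arrays that selected the genes for low values, so a measured level above them is favoured by that choice. The values are therefore a description with no interval and no test. RYR2 lay 0.25 above the additive level with panobinostat and 0.13 above it with valproic acid. These additive levels, 3.96 and 4.23, lie close to the median of all values. Little can be read from a measured RYR2 level above them. STAR lay at the additive level with panobinostat, measured at 5.73 against 5.85, and above it with valproic acid, at 6.81 against 5.90 (difference 0.90). TYRP1 lay below the additive level with panobinostat, at 6.39 against 7.06 (difference -0.67), and near it with valproic acid, at 6.17 against 6.28. ZNF32 and NFIX lay above it in both. ZNF32 was measured at 5.46 against an additive 3.22 with panobinostat and at 5.32 against 3.55 with valproic acid. Both additive levels lie below the median of all values, where a signal is weakly detected, if at all. Little can therefore be read from a measured ZNF32 level above them. NFIX was measured at 7.25 against 5.58 with panobinostat (difference 1.67) and at 7.27 against 6.37 with valproic acid (difference 0.89).

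**Figure D4:**
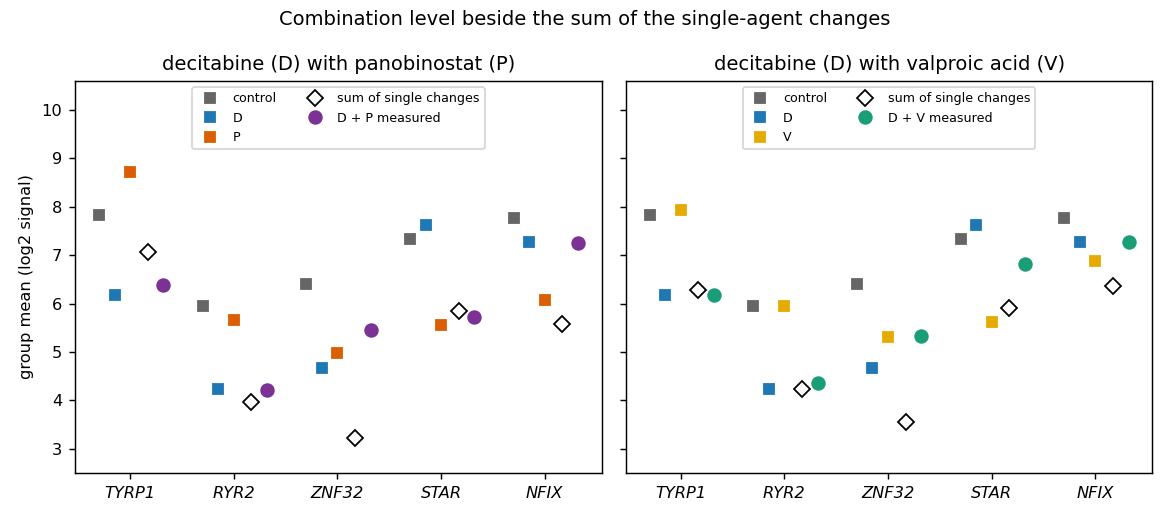
Group means (y axis, log2 signal) of each gene (x axis) for the combination with panobinostat (left panel) and valproic acid (right panel); squares are control and single drugs (D decitabine, P panobinostat, V valproic acid), open diamonds the level if the single-drug changes added, and circles the measured combination. For ZNF32 and NFIX the circle lies above the diamond in both panels, and the ZNF32 diamonds lie below the median of all values.

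Other genes of the same systems were counted in 5 lists that leave out the 5 genes. Genes with several probe sets are represented by the brightest. The shares of all genes called in each treatment are given above with the monocytic markers. Up to 4 called genes with the largest change were examined per list and treatment, and 24 of these 44 calls were kept whichever array of the compared groups was left out. The genes named next kept the calls given in every such fit unless stated.

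Of 25 melanin synthesis genes, 15 were measured, and 0 were called higher and 1 lower with decitabine, 0 and 2 with panobinostat, 0 and 3 with valproic acid, 1 and 2 with decitabine and panobinostat, and 1 and 1 with decitabine and valproic acid. Median log2 changes lay between -0.12 and 0.00, against medians of -0.02 to 0.00 over all genes. MITF stood at 4.89 in control, with changes of -0.19 to 0.33, and passed no test, nor did TYR, the tyrosinase that starts melanin synthesis, at a control level of 3.48. PMEL, the fibril protein of melanosomes, changed by 0.08 with decitabine (adjusted p = 0.947) and by 0.73 with panobinostat (adjusted p = 0.193). It rose by 2.93 with decitabine and panobinostat (SE 0.31, adjusted p = 4.51e-06), at 5.98, 6.29 and 6.88 against 3.54, 3.43 and 3.38 in control, without overlap. These control levels lie below the median of all values, so the size of the rise is set against a signal that may be background. Its change of 1.03 with decitabine and valproic acid (adjusted p = 0.0298) lost the call in 5 of the 6 fits that left out an array. LYST, a regulator of lysosomal trafficking, stood between 9.20 and 9.28 in control and fell by 1.19 with panobinostat (SE 0.15, adjusted p = 0.000109), by 0.94 with valproic acid (adjusted p = 0.00114), by 1.16 with decitabine and panobinostat (adjusted p = 3.03e-05) and by 1.08 with decitabine and valproic acid (adjusted p = 0.000115). Its fall of 0.63 with decitabine (adjusted p = 0.0244) was lost without any single array of the 6, at adjusted p-values of 0.0579 to 0.0869. KIT, the stem cell factor receptor, fell by 1.56 with panobinostat (SE 0.32, adjusted p = 0.00583).

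Of 35 calcium release genes, 20 were measured. By limma, 0 were called with decitabine, panobinostat or valproic acid, where 2, 3 and 4 had an unadjusted p under 0.05. In the combinations, 2 were called higher and 1 lower with decitabine and panobinostat, and 0 and 1 with decitabine and valproic acid. The closest relatives of RYR2, RYR1 at 3.52 and RYR3 at 3.22 in control, both below the median of all values, passed no test in any treatment. JPH4, a junctophilin that ties the plasma membrane to the endoplasmic reticulum, rose by 1.01 with decitabine and panobinostat (SE 0.21, adjusted p = 0.00165). STIM2, a calcium sensor of the endoplasmic reticulum, rose by 0.90 there (adjusted p = 0.00926), a call lost without control replicate 1 (adjusted p = 0.0574). CD38 was called lower in both combinations, at -0.80 with panobinostat (limma adjusted p = 0.014) and -0.69 with valproic acid (limma adjusted p = 0.0402). Of the 6 fits that left out an array, 4 and 2 kept these calls. Median changes lay between -0.04 and 0.12.

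Of 36 genes of steroid synthesis and cholesterol transport, 15 were measured, and 1 was called higher and 0 lower with decitabine, 0 and 2 with panobinostat, 1 and 0 with valproic acid, 2 and 2 with decitabine and panobinostat, and 3 and 2 with decitabine and valproic acid. VDAC1, an anion channel of the outer mitochondrial membrane, fell by 1.03 with decitabine and panobinostat (adjusted p = 2.96e-05) and by 0.74 with decitabine and valproic acid (adjusted p = 0.000961). HSD17B4, a peroxisomal enzyme of fatty acid oxidation, rose by 0.68 and 0.62 in these groups (adjusted p = 0.000796 and 0.00287). ACBD3, a Golgi protein that binds acyl-CoA, rose by 0.51 and 0.44 (adjusted p = 0.0015 and 0.00654). STARD7, which carries a lipid-binding domain like that of STAR, fell by 0.45 with decitabine and panobinostat (adjusted p = 0.00697). It also fell by 0.42 with decitabine and valproic acid (adjusted p = 0.0149), a call lost without the first replicate of that combination (adjusted p = 0.0599), and by 0.38 with panobinostat (adjusted p = 0.0483), a call lost in each of the 6 fits that left out an array. STARD5, with the same domain, rose by 0.68 with decitabine and valproic acid (adjusted p = 0.0287), and 5 of the 6 such fits lost that call. Their relatives STARD3, STARD4, STARD10 and STARD13 passed no test in any treatment.

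Of 39 nuclear factor I and blood transcription factor genes, 27 were measured, and 1 was called higher and 0 lower with decitabine, 2 and 0 with panobinostat, 2 and 0 with valproic acid, 5 and 4 with decitabine and panobinostat, and 4 and 0 with decitabine and valproic acid. Within the NFIX family, NFIA at 3.75 and NFIB at 4.83 in control passed no test, and NFIC at 9.96 was called lower with decitabine and panobinostat only, with a change of -0.34 (adjusted p = 0.0337); that call was lost in 5 of the 6 fits that left out an array. GATA2, a transcription factor of blood stem and progenitor cells, was higher in the 3 groups in which TYRP1 and RYR2 were low. It stood at 3.17, 3.61 and 4.06 in control and at 6.33, 5.95 and 6.37 with decitabine, a rise of 2.61 (SE 0.24, adjusted p = 4.21e-06) from a control mean below the median of all values, and it rose by 2.72 and 2.75 in the combinations with panobinostat and valproic acid (adjusted p = 6.64e-07 and 1.08e-06). MYB, a transcription factor of immature blood cells, rose by 0.65 with panobinostat (adjusted p = 0.00325). EGR1, an immediate early factor, rose by 1.99 with valproic acid (SE 0.43, adjusted p = 0.00986). Among those called lower with decitabine and panobinostat, KLF1 had a log2 change of -0.61 (limma adjusted p = 0.00812). SPI1 had a change of -0.85 there (limma adjusted p = 0.0118), and 4 of the 6 fits that left out an array kept that call.

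Of 11 zinc finger genes listed for the wider ZNF32 region, 9 were measured. None of them is among the 2 nearest genes on each side of ZNF32, and their distances from it were not taken. By limma, 0 were called with decitabine, where 3 had an unadjusted p under 0.05, and 0 with decitabine and valproic acid, where 2 had one. In the other groups, 0 were called higher and 1 lower with panobinostat and likewise with valproic acid, and 0 and 2 with decitabine and panobinostat. ZNF33A fell by 1.34 with valproic acid (adjusted p = 0.0101) and by 1.11 with decitabine and panobinostat (adjusted p = 0.0101). ZNF248 fell by 0.77 with decitabine and panobinostat (adjusted p = 0.00468), a call lost when its probe sets were averaged (adjusted p = 0.177). Median changes lay between -0.35 and 0.04.

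**Figure D5:**
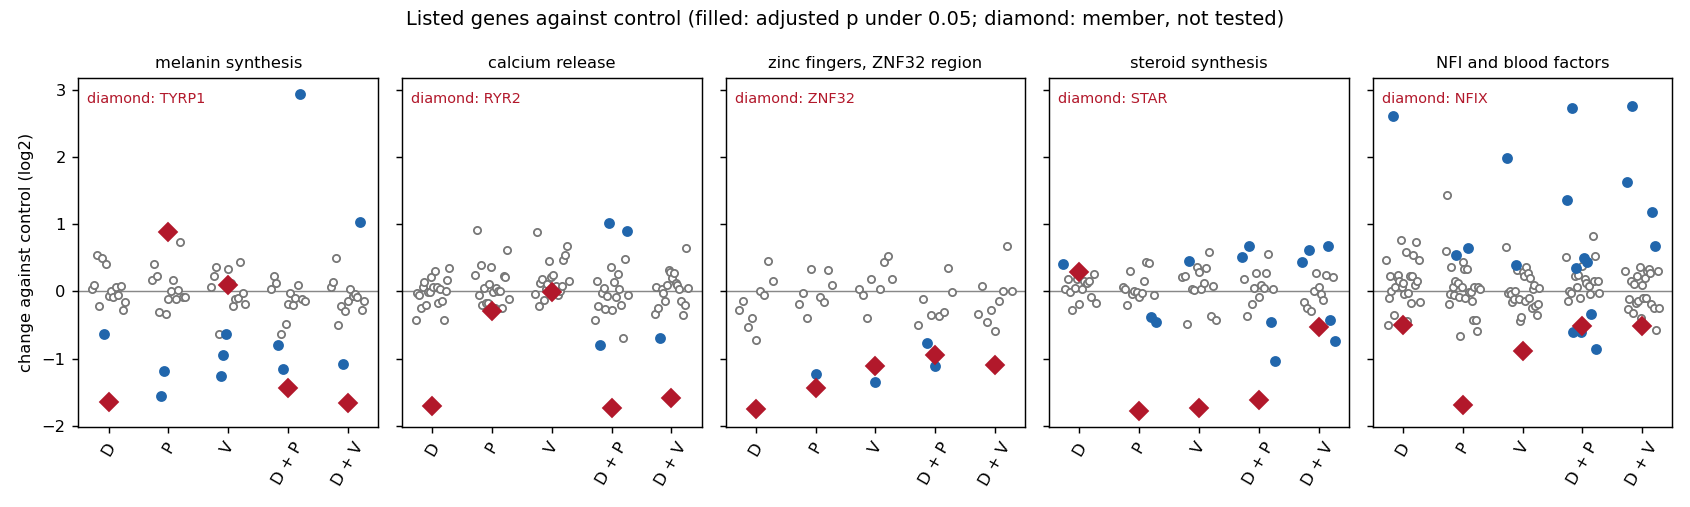
Log2 change against control (y axis) in the 5 treated groups (x axis; D decitabine, P panobinostat, V valproic acid), 1 panel a list; each circle is 1 listed gene, filled where limma called it at an adjusted p under 0.05, and the diamond is TYRP1, RYR2, ZNF32, STAR or NFIX, not tested. GATA2 is the highest circle with decitabine at 2.61, and PMEL the highest with decitabine and panobinostat at 2.93.

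The genes closest in pattern to each of the 5 were taken by Pearson's r over the 18 arrays among 1586 protein-coding genes whose group means span at least 1. These correlations are descriptions over arrays that share treatments. TYRP1 was most like C3orf80 (r = 0.937), FCHSD2 (0.921) and CERKL (0.897). It was most opposite to the germ cell genes GCNA (r = -0.969) and HORMAD1 (-0.955), whose means were 4.57 and 3.95 in control and 7.99 and 7.42 with decitabine. RYR2 was most like C5 (r = 0.911), CFAP263 (0.906) and ZNF138 (0.897), and most opposite to PNMA5 (-0.955) and PLTP (-0.953). STAR was most like MEPCE (r = 0.961), which stood at 8.83 in control, 9.10 with decitabine and 7.52 with panobinostat, then CST7 (0.893) and PUSL1 (0.887), and most opposite to ARHGEF12 (-0.938) and JAKMIP2 (-0.927). NFIX was most like SLC25A15 (r = 0.821) and the homeobox genes IRX3 (0.79) and DLX1 (0.783). It was most opposite to BMP2 (-0.899), a growth factor at 5.96 in control and 8.47 with panobinostat, and to REEP5 (-0.844). No gene followed ZNF32 as closely: the nearest were ODAD2 (r = 0.686), ONECUT2 (0.657) and ANKRD16 (0.634), and the most opposite were CSF1R (-0.779) and EIF4E3 (-0.757).

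Among the 5 genes, TYRP1 and RYR2 were the most alike pair over the 18 arrays, at r = 0.86. Both were selected on decitabine against control, and those arrays are among the 18, so a high r is favoured by that choice. After each group's mean was subtracted, the r of TYRP1 and RYR2 was -0.22, so the likeness lay between groups and not between arrays of a group. STAR and NFIX had an r of 0.59, and 0.04 within groups. Both were selected on an inhibitor against control, which likewise favours a high r. ZNF32 and NFIX had an r of 0.50, and 0.19 within groups. TYRP1 ran opposite to NFIX (r = -0.50) and to STAR (-0.42).

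Of the 2 nearest genes on each side of each of the 5 in the RefSeq order, only ZNF32-AS1, ZNF32-AS2 and LYL1 had a named probe set. The antisense genes ZNF32-AS1 and ZNF32-AS2 stood at 3.32 and 3.36 in control, with changes of -0.04 to 0.16 and -0.06 to 0.07, and passed no test. The antisense gene ZNF32-AS3, which is not among the nearest genes, stood at 3.54, 3.17 and 3.68 in control and at 4.14, 3.84 and 4.34 with panobinostat. These arrays did not overlap, and the change of 0.64 did not pass the test (adjusted p = 0.0782). Its other changes lay between -0.08 and 0.11, though ZNF32 was below control in those groups too. LYL1, a transcription factor gene near NFIX, changed by 0.59 with decitabine (adjusted p = 0.344) and passed no test in any treatment.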

How the data were processed

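The deposited values are log2 signals per probe set, computed by the authors with RMA, a method that corrects background, quantile-normalizes and summarizes probes, per the submitters' processing notes; its version is not given in the sources used here. The table held 48226 probe sets, of which 16098 had 1 gene symbol, 0 several and 32128 none in the array's annotation, and symbols were updated to RefSeq. The 779 genes with several probe sets were represented by the one with the highest mean. From these values limma 3.58.1 in R 4.3.3 fitted 1 mean per group over all 18 arrays, with empirical Bayes moderation and Benjamini-Hochberg adjustment over 14884 genes. A gene was called at an adjusted p under 0.05, and intervals cover 95%. The scripts were tested on simulated data. The number of arrays limits the precision. Named genes were the 5, the 3 most alike and 2 most opposite genes of each, up to 4 called genes with the largest change per list and treatment, and measured neighbours. Relatives of the 5, such as RYR1, TYR and NFIA, and ZNF32-AS3 were named for context after their values were seen. The members and lists were chosen with earlier results of these data known. Alternatives were other probe set choice, a filter on low levels, median centring, other variance settings, the replicate number as a block, and leaving out each replicate.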

Additional observations from a re-analysis of the deposited data

Results flagged for a closer look

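NFIX drew attention because decitabine went with opposite directions in the absence and presence of panobinostat. Against control, decitabine gave a log2 difference of -0.50, with every decitabine array below every control array. Against panobinostat alone, decitabine with panobinostat gave a log2 difference of 1.16, with every array of the combination above every panobinostat array. The difference between these effects was not tested, since arrays of these groups took part in selecting the gene for a low level with an inhibitor.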

How the results depend on the processing

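Of the member tests, the 4 falls of TYRP1 and RYR2 with decitabine and the fall of STAR with decitabine and panobinostat against decitabine kept their direction and call under every alternative. Leaving out single arrays gave -2.41 to -2.21 and -1.54 to -1.34 (TYRP1 and RYR2, with panobinostat), -1.90 to -1.62 and -1.78 to -1.36 (with valproic acid) and -2.02 to -1.76 (STAR). For STAR the valproic acid combination against decitabine ranged from -1.11 to -0.58 and passed only without its first replicate. NFIX differences near 0 changed sign when single arrays were left out, with ranges of -0.17 to 0.21 between the combinations, -0.14 to 0.21 for panobinostat and -0.18 to 0.15 for valproic acid against decitabine alone.

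The replicate numbers did not pair the samples: same-numbered arrays correlated at -0.11 to 0.10 in their deviations. With the replicate number as a block, TYRP1 in panobinostat against valproic acid passed, at 0.78 (adjusted p = 0.0473); no other member call changed.

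Calls among the 5 lists were 3 with decitabine (1 to 3 when single arrays were left out), 7 with panobinostat (4 to 7), 7 with valproic acid (3 to 5), 21 with decitabine and panobinostat (14 to 20) and 12 with decitabine and valproic acid (6 to 13, or 7 in a fit of the compared groups only). Over all genes, leaving out an array took the calls from 590 to between 361 and 468 (decitabine), from 1100 to between 659 and 854 (panobinostat) and from 1112 to between 508 and 1001 (valproic acid), each against control. A fit of the compared groups only took them from 1421 to 938 (panobinostat, with against without decitabine; 882 to 1126 without single arrays), from 600 to 261 (valproic acid, likewise; 371 to 565), from 97 to 2 (between the combinations; 26 to 109), from 913 to 177 (decitabine and valproic acid against decitabine; 360 to 1227) and from 18 to 0 between the inhibitors (4 to 15), where limma gave 1391 genes at an unadjusted p under 0.05, against 1349 in the fit of all groups. The causes were not tested. Each fit without an array has fewer samples.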
